A study of Mus musculus with 4 samples.

Results

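The Nfia stretch is the interval from 97200000 to 98600000 on mouse chromosome 4 (mm10), 1.4 Mb around Nfia, and its members are all ATAC-seq peaks called there. It was chosen by the raised local background in the peak list of 1 library, SMC#1, so every density, background and enrichment value of that list given for it is a description and was not tested. It held 471 of the 489558 peaks kept in the 4 lists, with 342 in SMC#1, 53 in SMC#2, 41 in non-SMC#1 and 35 in non-SMC#2. SMC cells are NCAM-hi CD44-lo/- cells and non-SMC cells are NCAM-lo CD44-hi cells, which were sorted by FACS from lung tumors of Rb1 L/L Trp53 L/L mice (the RP model) and grown as untreated cell lines. The labels number 2 lines of each type (SMC#1, SMC#2, Non-SMC#1 and Non-SMC#2), describe the types as paired, and give a mixed C57Bl/6, Balb-c and S129 background without an age. Rb1 and Trp53 were deleted by adenoviral Cre under the CMV promoter, so all 4 lines lack both tumor suppressors, and each line is represented by 1 library, so the spread within a type is the spread between 2 lines. The series compared open chromatin between the paired lines.

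ATAC-seq reads mark DNA that a transposase can reach, and MACS2 calls a peak where more fragments overlap than the local background predicts. Without a control library, MACS2 takes this background from the reads around the peak, by default within 10 kb, and never below the genome-wide level of the library. The fold enrichment therefore compares the height of a peak, its pileup, with the reads of its own neighborhood, and a stretch that yields more reads throughout has a higher background under each of its peaks. Nfia encodes nuclear factor I A, a transcription factor that binds the palindrome formed by TTGGC and GCCAA as a dimer, often with the other NFI proteins, and that is best known from glial and brain development. Its relative Nfib is a known driver gene of small cell lung cancer in mice. The stretch also holds Tm2d1, which encodes a transmembrane protein that binds amyloid beta, E130114P18Rik, which is read from the opposite strand and overlaps the Nfia start, and the first part of Patj, which encodes a polarity protein of tight junctions.

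The 6 sequences below are 200 bases of the mm10 plus strand around summits on which the results turn, read from the RefSeq copy of GRCm38, and none overlaps an annotated exon. The first 4 are the strongest peak of SMC#1, the strongest of SMC#2, the strongest of non-SMC#2 and the peak just before the Nfia start, which was found in all 4 lists. The last 2 are the first and the last peak of the run of raised background in SMC#1. Capitals mark an NFI single site (TTGGCA), an E-box (CAGCTG), or a TEAD motif (GGAATG) on either strand.
chr4:97418634-97418833, between genes: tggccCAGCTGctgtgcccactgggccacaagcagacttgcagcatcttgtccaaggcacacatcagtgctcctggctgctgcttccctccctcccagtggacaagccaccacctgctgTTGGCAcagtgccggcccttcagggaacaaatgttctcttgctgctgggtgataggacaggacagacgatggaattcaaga
chr4:97714684-97714883, intron of E130114P18Rik: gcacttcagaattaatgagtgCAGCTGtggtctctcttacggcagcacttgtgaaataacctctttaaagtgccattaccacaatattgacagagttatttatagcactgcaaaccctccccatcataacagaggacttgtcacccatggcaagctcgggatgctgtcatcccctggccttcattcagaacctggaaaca
chr4:98004233-98004432, intron of Nfia: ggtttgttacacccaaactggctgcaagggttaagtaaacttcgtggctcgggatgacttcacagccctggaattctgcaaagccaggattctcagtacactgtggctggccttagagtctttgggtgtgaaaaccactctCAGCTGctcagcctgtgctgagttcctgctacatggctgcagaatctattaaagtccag
chr4:97772285-97772484, before the Nfia start: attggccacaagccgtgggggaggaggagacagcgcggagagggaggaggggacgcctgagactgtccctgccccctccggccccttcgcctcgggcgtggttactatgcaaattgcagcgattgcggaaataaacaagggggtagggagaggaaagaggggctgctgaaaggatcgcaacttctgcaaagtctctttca
chr4:97383070-97383269, first peak of the run: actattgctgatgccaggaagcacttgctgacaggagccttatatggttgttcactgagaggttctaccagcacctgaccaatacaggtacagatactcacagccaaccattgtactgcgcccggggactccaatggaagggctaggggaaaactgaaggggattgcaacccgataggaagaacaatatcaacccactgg
chr4:98374184-98374383, last peak of the run, intron of Tm2d1: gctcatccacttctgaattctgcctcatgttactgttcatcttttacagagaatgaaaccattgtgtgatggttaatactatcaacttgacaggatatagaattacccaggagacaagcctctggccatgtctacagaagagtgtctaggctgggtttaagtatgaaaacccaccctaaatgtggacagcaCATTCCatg
The same search included an AP-1 motif (TGANTCA), a SOX motif (ACAAAG) and the NFI palindrome with 5 bases between TTGGC and GCCAA, none of which lay in these 6 windows. No motif of the search lay in the window before the Nfia start, and 81.5% of the window at the first peak of the run was soft-masked as repeat.

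The peaks lay far closer together in SMC#1 than in the other lists. SMC#1 had 24.4 peaks per 100 kb of the stretch and 3.33 per 100 kb of the rest of the genome, a ratio of 7.34. SMC#2 had 3.79 against 5.65, non-SMC#1 had 2.93 against 4.25, and non-SMC#2 had 2.50 against 4.72. Thus 3 libraries had fewer peaks per length here than elsewhere, and only the SMC#1 list was denser. On the log2 scale the density ratio was 2.87 in SMC#1, -0.58 in SMC#2, -0.54 in non-SMC#1 and -0.92 in non-SMC#2. Averaged by type, this gave 1.15 ± 2.44 (SD, n = 2) for SMC and -0.73 ± 0.27 (SD, n = 2) for non-SMC. The difference of 1.88 was close to the SD between lines of a type, 1.74. It was 3.41 between the lines numbered 1 and 0.34 between the lines numbered 2, here called the first and the second pair, although the labels do not say whether lines of 1 number come from the same mouse or tumor. A two-sided exact permutation test of 2 against 2 libraries cannot fall under p = 0.333, so the types were not tested against each other.

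Peak counts depend on depth, which the peak lists do not state. The lowest background recovered in a list, which rises with its depth, was 0.456 fragments in SMC#1, 1.54 in SMC#2, 1.49 in non-SMC#1 and 0.639 in non-SMC#2. The list with the most peaks in the stretch was thus the one with the lowest genome-wide background. When only the 91057 peaks with the lowest p-values were kept in each list, the log2 density ratio was 2.87, -0.46, -0.38 and -0.59 in the same order. The bases covered by peaks gave the same order of SMC#1 against the rest, with 6.93% of the stretch under a peak in SMC#1, 0.889% in SMC#2, 0.919% in non-SMC#1 and 0.643% in non-SMC#2.

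**Figure D1:**
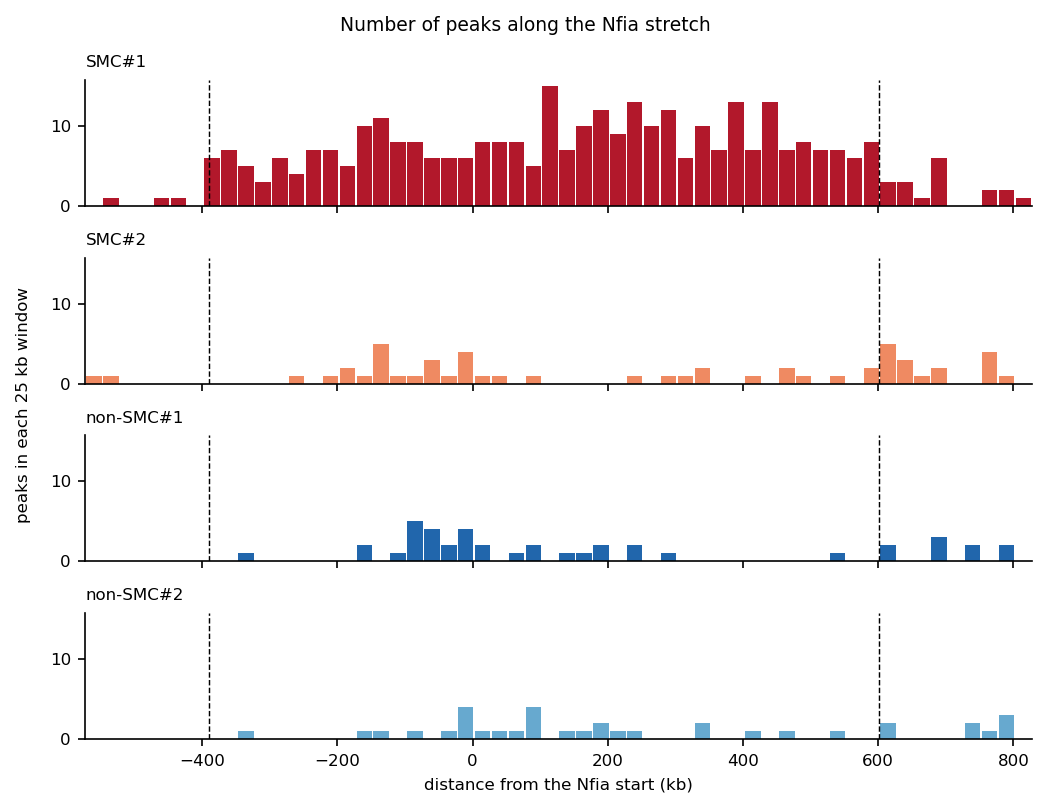
Number of peaks in each 25 kb window of the stretch, for the 4 libraries, against the distance of the window from the Nfia start in kb (Nfia reads to the right). Dashed lines mark the edges of the raised background in SMC#1, which had peaks in every window between them and up to 15 in 1 window, while no window of another library held more than 5.

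The local background under the peaks was raised in SMC#1 and not in the other libraries. Divided by the lowest background of the list, it had a median of 17.4 in SMC#1, with a quartile range of 10.6 to 21.9 and a highest value of 66.4. The background is taken from all reads around a peak, those of strong peaks included. The highest value lay 0.62 kb after the Nfia start, near a peak with 311 fragments. The median over the rest of the genome in this library was 1.34. In SMC#2 the median was 1.00 and the highest value 1.70, in non-SMC#1 they were 1.05 and 2.89, and in non-SMC#2 they were 1.00 and 2.24. Over the whole stretch the ratios of SMC#1 ran from 1.00 to 66.4 and overlapped those of the other libraries. Inside the edges described below they ran from 5.41 to 66.4. Those edges were set by a ratio of at least 5 in SMC#1. The low end there was thus fixed by that limit, and the lack of overlap is no separate result. A ratio of at least 5 was found at 320 of the 342 peaks of SMC#1 in the stretch. Over all peaks of the list the share was 1.02%, and these 320 peaks made up 34.3% of all peaks with such a ratio in a stretch that is 0.0514% of the genome. The other lists had no peak with such a ratio in the stretch, where their shares over all peaks were 0.371% in SMC#2, 1.34% in non-SMC#1 and 0.462% in non-SMC#2. The choice of the stretch used this background, so these shares only describe it. More copies of the DNA and more insertions per copy raise a pileup and its background alike, and they cannot be told apart in peak lists. The median log2 ratio was 2.06 ± 2.91 (SD, n = 2) in SMC lines and 0.04 ± 0.05 (SD, n = 2) in non-SMC lines, a difference of 2.02 against an SD between lines of 2.06. It was 4.04 in the first line pair and 0.00 in the second.

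**Figure D2:**
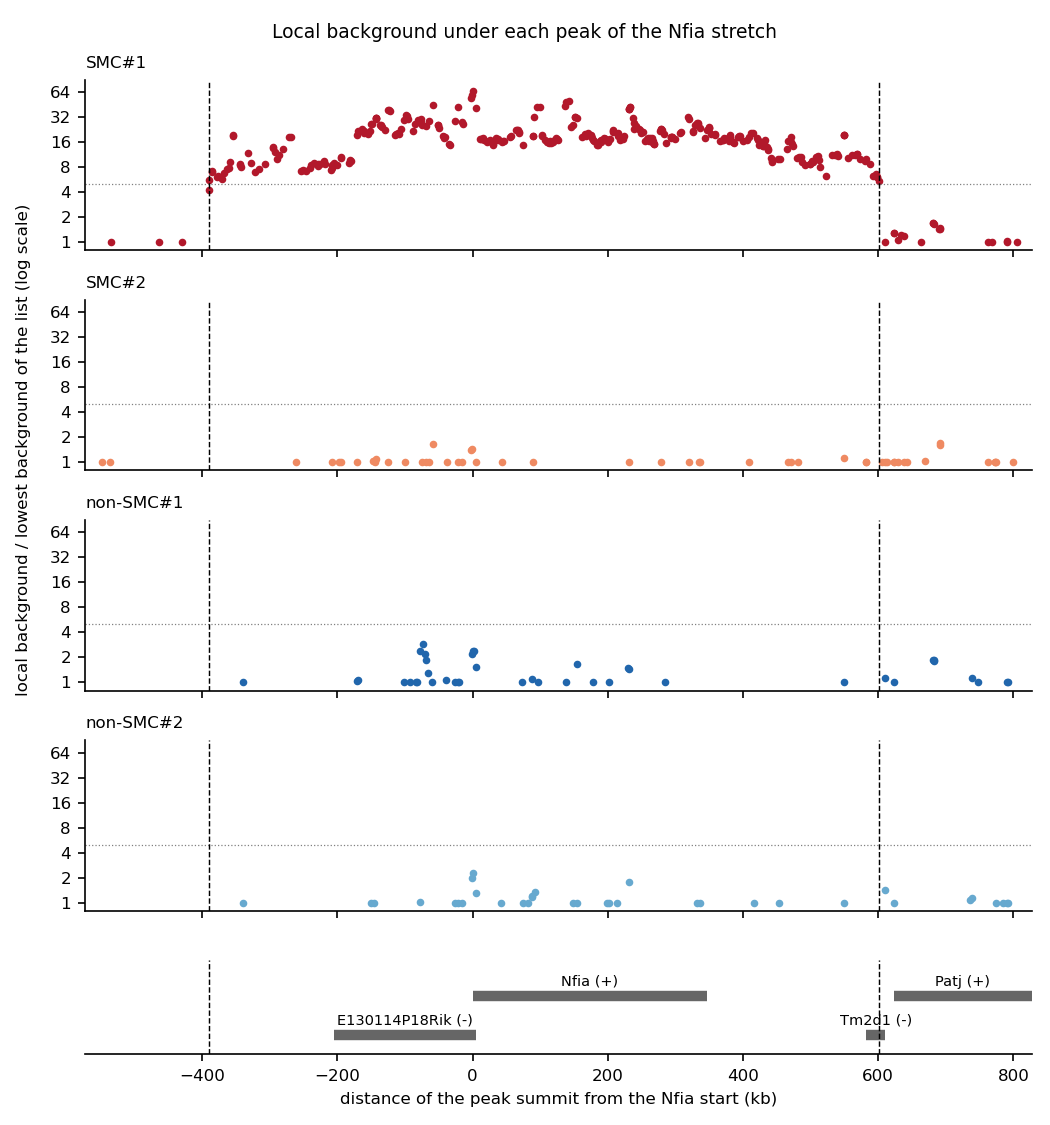
Local background under each peak, divided by the lowest background of its list (log scale), against the distance of the summit from the Nfia start in kb, with the protein-coding genes drawn to scale below and their strands in brackets. Dashed lines mark the edges in SMC#1 and the dotted line a ratio of 5; between the edges all SMC#1 peaks lie above it, and no peak of another library reaches 3.

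The right edge of the raised background in SMC#1 could be placed within 8.99 kb and the left one less closely. The edges were set by 25 kb windows that held 3 or more peaks with a median ratio of 5 or more, and by the last peak beyond each end that still reached 5. The run began with the peak whose summit lies at 97383170, where the ratio was 5.67, and ended with the peak at 98374284, where it was 5.41. It spanned 991 kb, from 390 kb before the Nfia start to 602 kb after it, and all 320 of its peaks had a ratio of at least 5. On the left, the next peak out lay 0.650 kb away at 97382520 with a ratio of 4.28, and the one beyond it, at 97342237 and another 40.3 kb away, had a ratio of 1.00. The fall on the left may thus lie anywhere between these last peaks. The left edge lies between genes. On the right, the next peak out lay 8.99 kb away at 98383275 and had a ratio of 1.00.

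The right edge lies inside Tm2d1, a gene of 27.9 kb that is read leftwards from 98383306. The last raised peak was in an intron, 9.02 kb downstream of the Tm2d1 start, and the peak of SMC#1 at the start itself was on the lowest background of the list. The part of the gene toward its 3′ end therefore lay on raised background, with 6 peaks and ratios from 5.41 to 8.85, and its start did not. No window run met the criteria in SMC#2, non-SMC#1 or non-SMC#2, so no edge could be placed in those lists.

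With a limit of 10 in place of 5, the longest run of windows divided the raised run into 3 sections, whose ratios overlapped. Some windows beyond this longest run also had medians over 10. These were 12.8 in the windows centered 285 kb and 260 kb before the Nfia start, and 11.4 and 11.1 in those 540 kb and 565 kb after it. From the left edge to 97592999 the median ratio was 8.71 over 49 peaks (range 5.67 to 19.7). Between 97601520 and 98257942 it was 19.1 over 238 peaks (range 9.19 to 66.4), and from there to the right edge it was 10.1 over 33 peaks (range 5.41 to 19.6). At the first step, peaks 181 kb and 180 kb before the Nfia start had ratios of 9.89 and 9.58, and the next, 171 kb and 170 kb before it, had 19.8 and 22.02. The last was gradual, with 10.6 at 98257942 and 9.24 at 98260683, and its place depends on the limit. Peaks from 442 kb to 454 kb after the Nfia start already had ratios of 9.19 to 10.2, and a peak 471 kb after it had 18.3. The first step falls inside E130114P18Rik, and the last between Nfia and Tm2d1.

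All of Nfia lay in the middle section. The gene, ENSMUSG00000028565.18 at 97772734 to 98118874 on the plus strand, overlapped 130 peaks of SMC#1, with ratios from 14.7 to 66.4 and a median of 18.7. It overlapped 8 peaks of SMC#2, 13 of non-SMC#1 and 16 of non-SMC#2. Median ratios over Nfia were 1.00 in SMC#2, 1.11 in non-SMC#1 and 1.00 in non-SMC#2. For SMC#1 the gene held 37.6 peaks per 100 kb, the densest of the 5 consecutive parts from edge to edge, while the part from the left edge to E130114P18Rik held 23.2. From E130114P18Rik to the Nfia start there were 60 peaks with a median ratio of 25.3, and from the end of Nfia to Tm2d1 there were 81 with a median of 15.02. The densest part was another one in SMC#2 and non-SMC#1, which had 8.80 and 8.31 peaks per 100 kb from E130114P18Rik to the Nfia start. In non-SMC#2 it was Nfia again, with 4.62.

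Outside the run but inside the stretch the background ratios of SMC#1 reached 4.28 on the left, at the peak next to the edge, and 1.72 on the right. To the left SMC#1 had 4 peaks in 183 kb, with a median ratio of 1.00, SMC#2 had 2, and neither non-SMC line had one. To the right, over the Tm2d1 start and the first part of Patj, SMC#1 had 18 peaks (7.97 per 100 kb) with a median ratio of 1.19 and SMC#2 had 16 (7.09 per 100 kb) with a median of 1.00. Non-SMC#1 had 9 peaks there and non-SMC#2 had 8, so both SMC lines had more peaks there than either non-SMC line. Relative to the rest of each genome-wide list, the density to the right was 2.39 times in SMC#1, 1.25 times in SMC#2, 0.938 times in non-SMC#1 and 0.750 times in non-SMC#2. Within the edges the same 4 libraries had 320, 35, 32 and 27 peaks.

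Most peaks of SMC#1 in the stretch were shallow relative to their surroundings. Their median fold enrichment was 2.67, against 3.43 in the rest of its list, and the median peak stood at percentile 12.3 of the whole list. The medians were 3.15 against 3.14 in SMC#2 (percentile 54.6), 4.55 against 3.62 in non-SMC#1 (percentile 62.4) and 3.66 against 3.13 in non-SMC#2 (percentile 61.1). SMC#1 was thus the only library whose peaks here ranked low in its own list. The mean of the median percentiles was 33.5 ± 29.9 (SD, n = 2) in SMC lines and 61.7 ± 0.92 (SD, n = 2) in non-SMC lines. The difference of -28.3 was larger in size than the SD between lines, 21.2, but not than the SD of the SMC lines alone, 29.9. It was -50.1 in the first pair, -6.49 in the second and -7.13 without SMC#1.

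The heights of the same peaks were the reverse of their enrichment. The median pileup was 21 fragments in SMC#1, against 5 in the rest of its list, and 7 against 8 in SMC#2, 12 against 10 in non-SMC#1 and 5 against 5 in non-SMC#2. On the lowest background of SMC#1 no peak of any chromosome was called with a fold enrichment under 2.75. Inside the edges, 186 of 320 peaks, or 58.1%, were under this value, down to 1.67. A given p-value is reached at a lower enrichment where the background is higher. At the other end, 51 peaks inside the edges reached the median enrichment of the list.

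**Figure D3:**
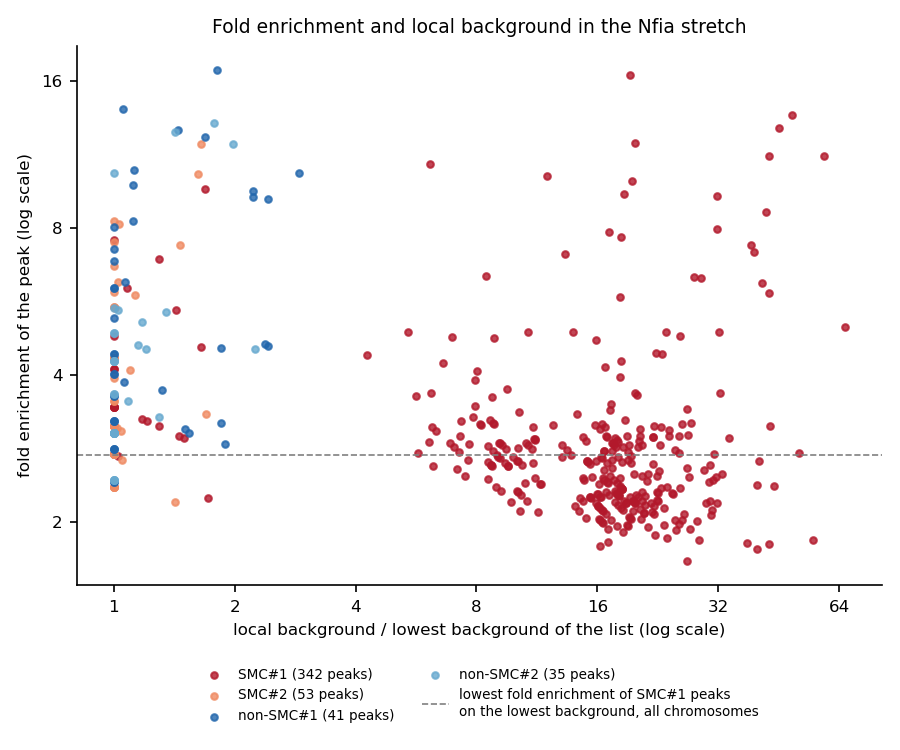
Fold enrichment of each peak of the stretch against its local background divided by the lowest background of its list (both log scales), coloured by library. Peaks of SMC#1 form a group at ratios above 5 that reaches down to an enrichment of 1.67, under the dashed line at 2.75, the lowest enrichment that a peak of this library had on the lowest background anywhere.

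By q-value, unlike by fold enrichment, the SMC#1 peaks of the stretch were not weaker than the rest of its list. A -log10 q of at least 5 was reached by 63 of 342 peaks in SMC#1, 13 of 53 in SMC#2, 21 of 41 in non-SMC#1 and 4 of 35 in non-SMC#2. These shares were 18.4%, 24.5%, 51.2% and 11.4%, and over the rest of each list they were 14.3%, 17.1%, 38.0% and 19.5%. With this limit the log2 density ratio was 3.24 in SMC#1, -0.06 in SMC#2, -0.11 in non-SMC#1 and -1.69 in non-SMC#2, so the excess in SMC#1 was not smaller among strong peaks. Among the peaks that passed this limit, those of the stretch had a median percentile of fold enrichment of 0.59 in SMC#1, 52.0 in SMC#2, 59.3 in non-SMC#1 and 91.0 in non-SMC#2.

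Few peaks of SMC#1 inside the edges had a counterpart elsewhere. Of the 320, 34 overlapped a peak of any other library, or 10.6%, where the share over its whole list was 48.4%. The 34 had a median fold enrichment of 4.85 and a median width of 430 bp, and the 286 found in SMC#1 alone had 2.58 and 202 bp. Seen from the other side, peaks of the other libraries were covered more often than elsewhere. A peak of SMC#1 overlapped 25 of 35 peaks of SMC#2 inside the edges (71.4%, against 22.8% over the list). It overlapped 15 of 32 peaks of non-SMC#1 (46.9%, against 19.0%) and 12 of 27 of non-SMC#2 (44.4%, against 15.2%). SMC#1 peaks covered 9.11% of the bases inside the edges and 0.797% of the rest of the genome.

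Merging the peaks that overlap by 1 base or more gave 394 regions in the stretch. A peak in SMC#1 alone was found at 297 of them, or 75.4%, where the share over the genome was 13.1%. All 4 libraries had a peak at 7 regions, or 1.78%, against 3.81% of all regions. These shares fall with the number of regions in SMC#1 alone, so the others were also counted over the 97 regions of the stretch, and the 310629 of the genome, with a peak in another library than SMC#1. Of these 97, the 7 with a peak in all 4 libraries made up 7.22%, against 4.38% over the genome. Peaks of SMC#1 and SMC#2 without any non-SMC peak marked 22 (22.7%, against 5.03%). Peaks of SMC#1 and non-SMC#1 only marked 5 (5.15%, against 0.857%), and those of SMC#1 and non-SMC#2 only marked 3 (3.09%, against 0.598%). SMC#1 paired with 1 other list, of either type, was thus above its share over the genome. SMC#1 peaks covered 9.11% of the bases inside the edges and 0.797% of the rest of the genome, so overlaps with them are more likely here. Counting over the 97 regions does not remove this, which raises the shares with SMC#1 and lowers those without it. Peaks of the 2 non-SMC lines without any SMC peak marked 5 (5.15%, against 8.44%). A peak in SMC#2 alone marked 18 (18.6%, against 32.7%), in non-SMC#1 alone 16 (16.5%, against 18.003%) and in non-SMC#2 alone 12 (12.4%, against 22.7%).

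Where SMC#1 and another library both had a peak, their heights lay far apart inside the edges and their fold enrichments did not. Heights were divided by the lowest background of each list and compared on the log2 scale. At the 24 regions inside the edges shared with SMC#2, SMC#1 was higher by a median of 4.15, with a range of 2.75 to 5.65, while at 34261 shared regions outside the stretch the median was 0.75. At the 14 regions shared with non-SMC#1 the median was 4.33, against 0.26 outside, and at the 12 shared with non-SMC#2 it was 4.18, against 0.14. Every shared region inside the edges was above the genome median of its pair of libraries, since the lowest differences were 2.75, 1.35 and 1.403. The edges were set by a ratio of at least 5 in SMC#1, and a raised background goes with a greater height of its peaks. The excess inside the edges thus follows in part from how they were set and is no separate result. The pairs without SMC#1 gave medians of -0.56 for SMC#2 minus non-SMC#1 over 7 regions, against -0.47 outside. SMC#2 minus non-SMC#2 gave -0.68 over 7 regions, against -0.62, and non-SMC#1 minus non-SMC#2 gave -0.22 over 12 regions, against -0.05.

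The fold enrichments at the same regions differed by much less. Fold enrichment has 1 added to pileup and background, and the heights do not, so these measures are scaled differently. SMC#1 minus SMC#2 had a median log2 difference of 0.42 (quartiles -0.15 and 0.67), against -0.03 outside. SMC#1 minus non-SMC#1 gave 0.05 (quartiles -0.34 and 0.30), against -0.25 outside, and SMC#1 minus non-SMC#2 gave 0.03 (quartiles -0.58 and 0.65), against -0.11 outside. In the flanks the height differences had medians of 0.67 over 8 regions for SMC#2, 0.58 over 4 for non-SMC#1 and 0.49 over 3 for non-SMC#2. These medians were under the lowest difference of the same pair inside the edges. The highest flank differences were 1.37, 1.70 and 0.75 in the same order. For non-SMC#1 this was above the lowest difference inside the edges, 1.35. The flanks lie outside edges that were set on the SMC#1 background, so this contrast is no separate result either.

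**Figure D4:**
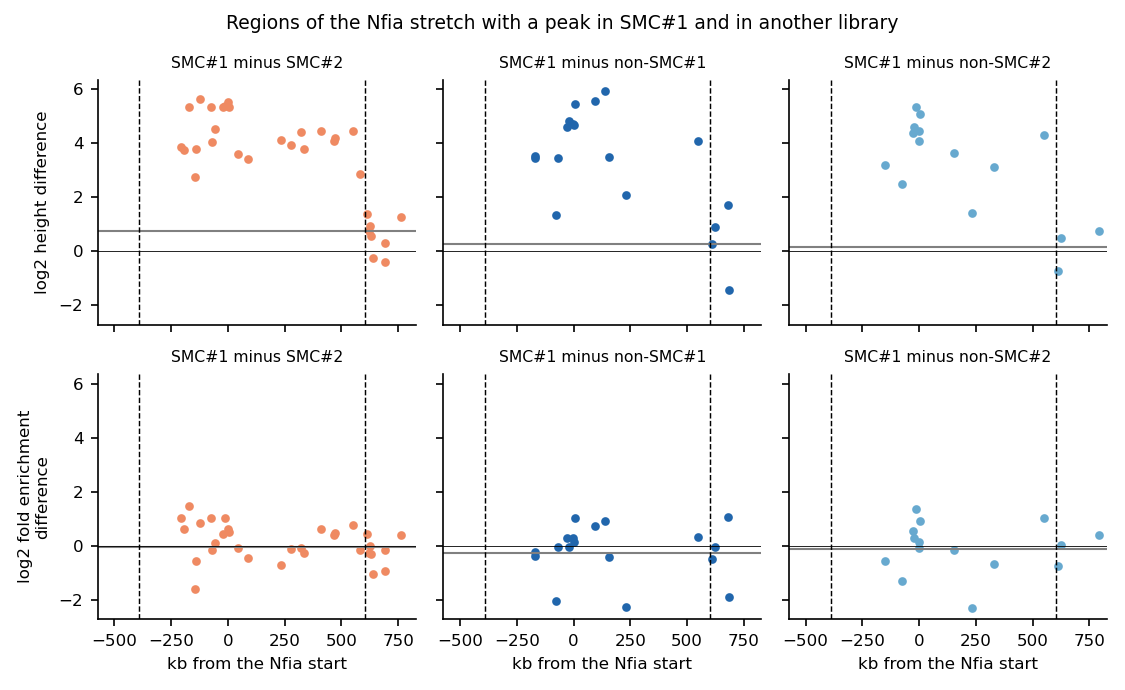
Log2 difference between SMC#1 and each other library at regions with a peak in both, in height over the lowest background (top row) and in fold enrichment (bottom row), against the distance from the Nfia start in kb. The grey line is the median of the shared regions outside the stretch and dashed lines are the edges. Between them every height difference is above the grey line, which the setting of the edges on the SMC#1 background fixes in part. The enrichment differences lie on both sides of the grey line.

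Nfia had open chromatin at its start in all 4 libraries. A peak 0.404 kb before the first annotated start, in an intron of E130114P18Rik, reached 311 fragments in SMC#1, 23 in SMC#2, 39 in non-SMC#1 and 26 in non-SMC#2. Its fold enrichment was 11.2 in SMC#1, 7.40 in SMC#2, 9.28 in non-SMC#1 and 11.9 in non-SMC#2, on backgrounds of 58.6, 1.46, 2.23 and 1.98 times the lowest. The library with by far the highest pileup thus had an enrichment inside the range of the others. This is the peak whose sequence is shown as the window before the Nfia start.

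The other starts of Nfia differed among the libraries. At 97777608 to 97777834, where 5 of its transcripts begin, all 4 libraries had a peak within 500 bp, which also lay within 500 bp of the E130114P18Rik starts at 97778048 to 97778078 on the other strand, with enrichments of 6.18, 4.33, 3.04 and 3.29 in SMC#1, SMC#2, non-SMC#1 and non-SMC#2. At the internal start at 97911033 SMC#1 had a peak with an enrichment of 13.6 and 317 fragments, the highest pileup of the stretch, and non-SMC#1 had one with 7.24 and 17 fragments. SMC#2 and non-SMC#2 had no peak there. No library had a peak at the internal start at 97880119. The starts of E130114P18Rik at 97584596 to 97584636 and at 97690736 had no peak within 500 bp in any library either. Both lie between the edges of the run.

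Several strong peaks in or near Nfia divided the libraries. The strongest of SMC#1, at 97418612 to 97419118, had an enrichment of 16.4 and 160 fragments, lay 354 kb before the Nfia start between genes, and had no counterpart in another list. The peak at 97714466 to 97715125, 57.9 kb before the Nfia start in an intron of E130114P18Rik, had an enrichment of 12.8 in SMC#1 and 11.9 in SMC#2, where it was the strongest of the stretch, and was in neither non-SMC list. An E-box, the motif that basic helix-loop-helix factors bind, lies in both of these windows and also in the third one printed above.

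Strong peaks of the non-SMC lists in or before Nfia were in part shared with SMC#1. At 98003802 to 98004623 the enrichment was 12.7 in non-SMC#1 and 13.1 in non-SMC#2, the strongest of that list here, against 4.33 in SMC#2 and 2.67 in SMC#1. SMC#1 nevertheless had 51 fragments there, at the higher of its 2 peaks, on a background of 40.5 times the lowest. Non-SMC#1 had 39 fragments and non-SMC#2 had 27. Just outside this region, at 98005236, SMC#1 had a further peak with an enrichment of 8.63 and 173 fragments. At 97926767 to 97927503 the enrichment was 12.3 in non-SMC#1, 10.4 in non-SMC#2 and 9.31 in SMC#1, and SMC#2 had no peak. A peak at 97601249 to 97601874, at the first step of the background, was found with enrichments of 12.0 in SMC#1, 4.33 in SMC#2 and 14.0 in non-SMC#1, and not in non-SMC#2. Of the 2 remaining regions inside the edges with a peak in all 4 lists, the one at 98322069 to 98322750, between Nfia and Tm2d1, had enrichments of 10.0, 5.84, 8.05 and 4.88. The other, at 97750950 to 97752216 in E130114P18Rik, had 5.90, 4.33, 6.03 and 4.88, so these regions were open in both types of cell.

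At the Tm2d1 start, beyond the right edge, the height differences were smaller than at any region inside the edges shared by the same pair of lists. The right edge was placed by the low SMC#1 background at this start, so this only describes it. SMC#1 had 10 fragments, against 13 in SMC#2, 27 in non-SMC#1 and 23 in non-SMC#2, with enrichments of 7.55, 5.52, 10.5 and 12.6. Divided by the lowest background of each list, its log2 height minus that of SMC#2 was 1.37, minus that of non-SMC#1 was 0.27 and minus that of non-SMC#2 was -0.72. At the Patj start, at 98395785 to 98395892, SMC#1 had a peak with an enrichment of 6.91 and SMC#2 one with 8.27. Neither non-SMC list had a peak that overlapped it. Next to it, at 98396120 to 98396599, all 4 lists had a peak. Its enrichments were 3.14 in SMC#1, 3.12 in SMC#2, 3.22 in non-SMC#1 and 3.05 in non-SMC#2. Within Patj the strongest peak of non-SMC#1 in the stretch, at 98455099 to 98455668, had an enrichment of 16.9, against 4.56 in SMC#1, and the other lists had none. SMC#2 had its second strongest peak at 98463498 to 98464012, with an enrichment of 10.3, against 5.45 in SMC#1 and no peak in the non-SMC lines.

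Most peaks lay in introns. By the protein-coding genes of GENCODE, 207 of the 342 summits of SMC#1 were in introns, 7 in exons and 128 between genes. Between genes there were 12 of 53 in SMC#2, 2 of 41 in non-SMC#1 and 4 of 35 in non-SMC#2. The intergenic share was thus 37.4% in SMC#1, 22.6% in SMC#2, 4.88% in non-SMC#1 and 11.4% in non-SMC#2. The same shares over each whole list, and the share of the stretch that is in genes, are not given. These counts therefore only describe where the peaks lay.

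The GC content under the SMC#1 peaks lay between that of peaks elsewhere and that of the stretch at large. Within 150 bases on each side of the summit the median GC content was 47.5% inside the edges, 51.8% at the peaks of the same list on the rest of chromosome 4 and 41.2% over all windows of the same length inside the edges. The 34 peaks with a counterpart in another list had 51.0% and the 286 without had 47.2%. Soft-masked repeats made up a median of 8.31% at the peaks inside the edges and 14.5% over all windows there. These are medians over windows that lie in 1 stretch, and no test was made.

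Motif letters were searched on both strands of the same windows. The NFI single site was found in 75 of 320 windows of SMC#1 inside the edges (23.4%), 18.1% of its peaks on the rest of chromosome 4 and 16.3% of all windows inside the edges. It was in 5 of the 34 with a counterpart in another list (14.7%) and in 24.5% of the 286 without. In the other lists it was less frequent inside the edges than on the rest of the chromosome, at 4 of 35 windows of SMC#2 (11.4%, against 17.0%), 5 of 32 of non-SMC#1 (15.6%, against 18.2%) and 3 of 27 of non-SMC#2 (11.1%, against 18.1%). The full NFI palindrome was in 1 of the 320, and a single site is part of it only where an A follows. The E-box was in 20.6% of the SMC#1 peaks inside the edges, 21.9% of those on the rest of the chromosome and 11.1% of all windows inside the edges. The AP-1 motif was in 9.38% of the peaks of SMC#1 and in 2 of 35 of SMC#2 inside the edges, against 8.93% and 9.12% of their peaks on the rest of the chromosome. It was in 12 of 32 windows of non-SMC#1 and 8 of 27 of non-SMC#2, against 33.5% and 26.7%. The TEAD motif was in 18.1% of SMC#1 windows inside the edges, against 15.04%, and in 4 of 35, 6 of 32 and 1 of 27 windows of SMC#2, non-SMC#1 and non-SMC#2, against 15.3%, 19.4% and 17.75%. The SOX motif was in 64 of the 320, against 23.1%, and in 10, 11 and 4 windows of the other lists in the same order, against 22.9%, 21.5% and 20.3%.

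The other genes of the NFI family had no such background. Over Nfib, on the same chromosome at 82290173 to 82705750, the median ratio was 1.20 in SMC#1, 1.23 in SMC#2, 1.32 in non-SMC#1 and 1.00 in non-SMC#2, with 30, 43, 28 and 19 peaks. Over Nfix, on chromosome 8, it was 2.80, 1.92, 2.44 and 2.57. Over Nfic, on chromosome 10, it was 2.64, 2.70, 2.35 and 2.25. In SMC#1 the highest ratio over these 3 genes was 4.27, under the lowest over Nfia, 14.7.

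In the genome, windows like the stretch were few. Of 1600 windows of 1.4 Mb with at least 10 peaks of SMC#1, the stretch had the most peaks, 342, and the median ratio ranked 2nd. The window with the higher ratio was also on chromosome 4, from 122400000 to 123800000, with a median of 34.7 over 241 peaks. The next 4 had medians of 3.65 on chromosome 2, 2.73 and 2.72 on chromosome 10 and 2.61 on chromosome 11. In the lists of the other libraries the stretch ranked 1139 of 1659 in SMC#2, 794 of 1597 in non-SMC#1 and 825 of 1725 in non-SMC#2. SMC#2 had 2 windows with a median ratio of at least 5, both on chromosome 4, with 50.8 from 135000000 to 136400000 and 27.0 from 122400000 to 123800000. Of 2467 windows of 100 kb with at least 10 peaks of SMC#1, 24 had a median ratio of at least 5, and 10 of these 24 were in the stretch.

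**Figure D5:**
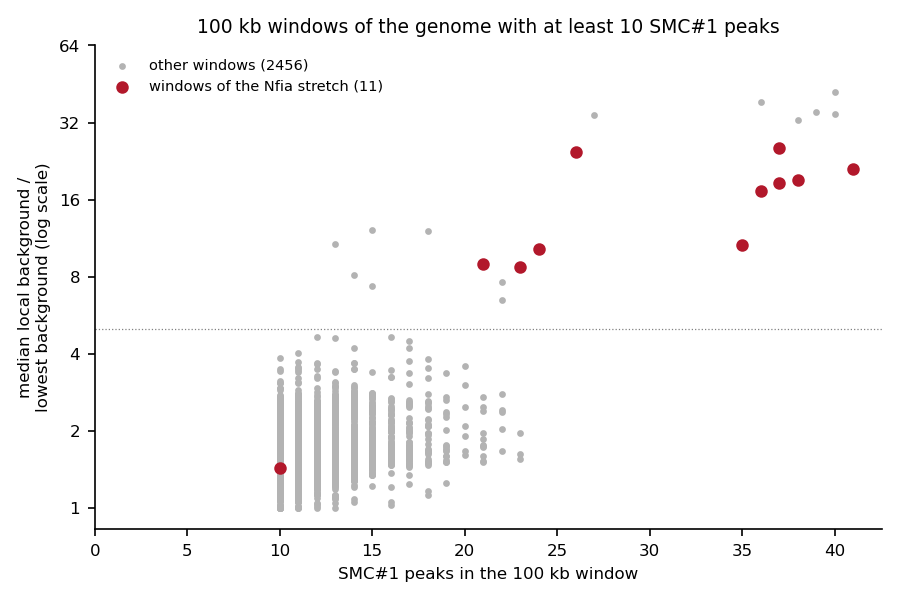
Median local background over the lowest background (log scale) against the number of SMC#1 peaks, for 100 kb windows with at least 10 peaks. Of the 11 windows in the stretch, 10 lie above the dotted line at 5, and these 10 hold 21 to 41 peaks.

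The labels of the libraries were checked by promoter peaks, within 6 kb centered on the gene start. SMC markers (Ncam1, Insm1, Chga, Sox11, Neurod1 and Nkx2-1) had a promoter peak at 5 of 6 genes in SMC#1, 6 in SMC#2 and 4 in each non-SMC line. With a -log10 q of at least 5 these were 2, 6, 2 and 1 in SMC#1, SMC#2, non-SMC#1 and non-SMC#2. Non-SMC markers (Cd44, Vim, Wwtr1, Yap1, Axl, Ccn1 and Ccn2) had a promoter peak at 2 of 7 genes in SMC#1 and at all 7 in each of the other libraries, and with the limit at 1, 1, 7 and 5. With the limit, the non-SMC markers thus differed between the types, while SMC#1 and non-SMC#1 had the same count of SMC markers. The lists held from 91057 peaks in SMC#1 to 153954 in SMC#2. The share of all promoters with a peak is not given, so these counts are no test of the labels.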

How the data were processed

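ATAC-seq was performed on 4 libraries. Per the labels and the methods, the authors mapped paired-end reads to mm10 with Bowtie2 2.3.4 and called peaks in each library with MACS2 2.1.1, with settings not given in the sources used here. The authors deposited, for each peak, the fold enrichment as a ratio over the local background and the −log10 of its p-value and q-value, the summit offset and a score that was not used. The lists hold no read totals and the paper gives them by cell type, so the depth of each line is unknown.

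Peaks on unplaced contigs were dropped (61 to 85 per list). A single marker gene of the list used to check the labels is not reported here. Pileup and background were recovered from fold enrichment and p-value within 1%, with 1 added to each and a Poisson p, for all but 3 to 5 peaks per list and for every peak of the stretch, and the recovery and the edge search were tested on simulated data. Genes are those of GENCODE M21 on GRCm38, and percentiles are ranks of fold enrichment within a list. Peaks sharing 1 base or more were joined into regions. Named peaks are the 5 strongest of each list, regions with a peak in all 4 and those at the edges; the internal Nfia start, the background steps and the printed windows were picked after their values were seen. The members and lists were chosen with earlier results of these data known. The alternatives tried were a −log10 q limit of 5, equal numbers of top peaks, the interval inside the edges, the rest of chromosome 4 as reference, bases covered, the median background, other edge settings, a reciprocal overlap of 50%, each library left out and the mean within line pairs. Python 3.11.15, numpy 2.4.6, pandas 2.3.3, scipy 1.17.1 and matplotlib 3.10.9 were used.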

Additional observations from a re-analysis of the deposited data

How the results depend on the processing

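The SMC minus non-SMC difference in density stayed within the SD between lines of its main value of 1.88 under the 5 settings that kept all libraries, but it rested on SMC#1. Leaving out each library in turn gave 0.15 to 3.60 for density, -0.038 to 4.08 for background, where the sign reversed without SMC#1 (-0.038), and -49.4 to -7.13 for the percentile of fold enrichment, with the value nearest 0 without SMC#1 in each case. The mean within line pairs, which is the fit with the replicate block, gave the main values of 1.88, 2.02 and -28.3 again. The percentile difference of -28.3 was -48.9 with a -log10 q of at least 5 and -17.9 with equal numbers of top peaks. In the second pair the percentile difference of -6.49 was -39.1 and 8.03 under the same settings, the density difference of 0.34 was 1.63 with the q limit and -0.02 against the rest of chromosome 4, and the background difference of 0.00 was -0.66 with the q limit. A ratio of at least 10 in place of 5 moved the first and last summits of the run to 97601520 and 98257942, the steps of the background. A ratio of 3, 100 kb windows and 10 kb windows left both ends within 25 kb. With a -log10 q of at least 5 there were 46 regions with a peak in SMC#1 alone, in place of 297, and 2 with a peak in all 4 libraries, in place of 7; a reciprocal overlap of 50% also left 2. The causes were not tested. The lists hold called peaks only, so background between peaks was not measured.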
